A study of Rattus norvegicus with 6 samples.

Results

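Intron retention events were read from the splicing event lists of 6 rat RNA sequencing libraries. Each event is a position where some transcripts of a locus keep an intron within an exon (the retained form) and others remove it (the spliced form). All events typed as retention of 1 intron (IR) or of several consecutive introns (MIR), together with the same types carrying a leading X whose meaning was not given in the sources used here, were taken, and an event repeated within a library was counted once. This gave 4765 events, 2120 of the retained and 2645 of the spliced form, at 1128 loci, out of 57428 events of any kind at 13713 loci. They made up 8.30% of the events, and their loci made up 8.23% of the loci.

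In most mammalian transcripts introns are removed by the spliceosome while the RNA is still being made, and an intron that stays behind often carries a stop codon. Such RNA may be held in the nucleus, degraded by nonsense-mediated decay or spliced later, so that retention can lower the protein output of a gene without any change in its transcription. Short introns with weak splice sites near the 3′ end of a gene are known to be retained more often than others.

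The study grew VSMCs (vascular smooth muscle cells, which contract the arterial wall) from SD rats and, by its methods, used them at passage 3. A control virus had 2 libraries. SLC2A10, which encodes the glucose transporter GLUT10, was targeted by the interference sequences 2 and 3, again with 2 libraries per sequence. All 6 libraries carry the tissue aorta and the strain SD. The sample titles name siRNA, the methods name an shRNA virus, the genotype label is SLC2A10-/- for the interference libraries, the extraction text describes frozen aorta, and the design text names mice, so it is unsettled whether the RNA came from tissue or from culture. Knockdown is used here as the study's term for the 4 interference libraries. The number before the last in a title was read as the sequence and the last as the replicate. Nothing states that replicates came from separate cultures, so the spread behind the p-values is that among these 6 libraries and may be technical.

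None of the 1100 Ensembl gene IDs at these loci could be paired with a gene name from the tables used here, and 26 of the loci carry no such ID. SLC2A10, markers of smooth muscle and named pathways were therefore not analysed here, and every direction rests on the sample labels. Loci are given by their coordinates in the genome build of the files, whose name was not given in the sources used here, and those described often receive a letter. Values are FPKM (fragments per kilobase of transcript scaled by the mapped fragments of the library), which the authors listed for each event. The read depth behind them is unknown. An event that a library did not list was set to 0.

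Of the 4765 events, the type IR held 1326 retained and 1641 spliced events, and MIR held 220 and 335. The types with a leading X held 487 retained and 559 spliced events of 1 intron and 87 and 110 of several. A locus had a median of 2 such events, and 689 loci had no more than 2, whereas 1 locus had 264. That locus, chr1:225184867-225255593, had retained shares of 65.4% and 67.2% in the controls, 85.9% and 47.6% with sequence 2, and 50.5% and 56.3% with sequence 3. The retained share is the FPKM of the retained form divided by the FPKM of both forms, and at this locus the knockdown libraries lay on both sides of the controls. The FPKM of an event is that of the transcripts that contain it, so a transcript counts once at each event it takes part in, as retained at one intron and spliced at another. For this reason the summed forms exceeded the level of the locus itself, taken from its transcript starts and ends, in at least 1 library at 317 of 823 loci.

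Loci with intron retention events were more highly expressed than the others. Their median level was 7.33 to 7.68 FPKM across the 6 libraries, compared with 4.38 to 4.59 FPKM at the other 12585 loci. They also carried other splicing choices more often, as 55.1% of them had an exon skipping event compared with 25.8% of the other loci. The part of expression level in the second difference was not tested. Among the numbered chromosomes and X, the share of loci with intron retention ranged from 4.83% on chromosome 18 to 11.3% on chromosome 20.

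The 1681 introns of single-intron events were short, with a median of 494 bases and quartiles of 225 and 1200 bases. Their middle lay at a median of 61.8% of the locus counted from its 5′ end, compared with 51.7% for 4516 skipped exons. Their length was a multiple of 3 in 38.3% of cases, compared with 52.2% for skipped exons. A length that is a multiple of 3 keeps the reading frame when the segment is included.

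Short introns had the highest retained shares. Shares were averaged over the 6 libraries for each of 1024 introns that could be measured in every library. The 257 introns of 5 to 216 bases had a median of this mean share of 31.9%, and 45.1% of them were over 50%. The 3 classes of longer introns, from 218 bases upwards, had medians of 4.02%, 4.26% and 6.16%, with 10.2% to 12.9% of their introns over 50%. Within single libraries the median was 28.1% to 38.2% in the shortest class. In the longer classes it was 0% to 0.00536%, 0% to 5.76% and 0% to 9.14%. Nearly all of the very shortest introns had a high share. Of the 39 measured introns under 50 bases, 38 had a mean share over 50% and the median was 100%, whereas the 985 introns of at least 50 bases had a median of 5.52%. The latter nevertheless held 165 of the introns over 50%. Gaps of a few bases are shorter than any intron known to be spliced in mammals, and no value here tells what they are.

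**Figure D1:**
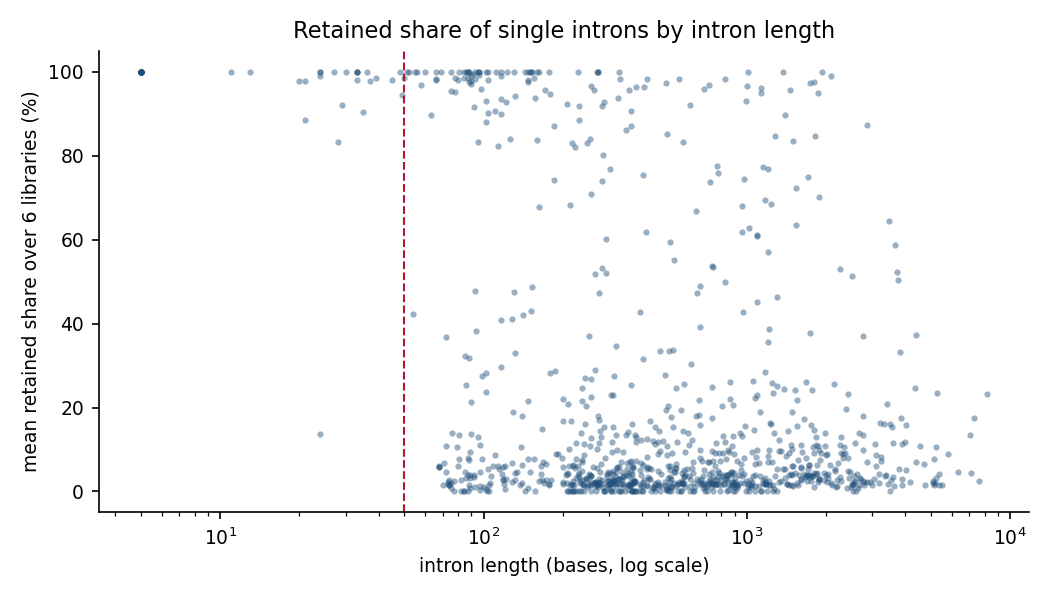
Mean retained share over the 6 libraries (vertical axis, percent) against intron length (horizontal axis, bases, log scale) for 1024 single introns, 1 point per intron, with a dashed line at 50 bases. Of the 39 introns left of the line, 38 lie above 50%, while most longer introns lie near the bottom of the plot.

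The retained form was listed far less steadily than the spliced form. Of the 2120 retained events, 948 (44.7%) were listed in 1 library alone and 318 (15%) in all 6. Of the 2645 spliced events, 874 (33.0%) were listed in 1 library and 1162 (43.9%) in all 6. Over all event types these shares were 23.7% and 51.4%. Retained events found in 1 library had a median of 0.832 FPKM there, whereas those found in all 6 had a median of 4.54 FPKM. Each library contributed between 107 and 201 of the retained events found once, the lowest number in replicate 2 of sequence 3 and the highest in replicate 2 of sequence 2.

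**Figure D2:**
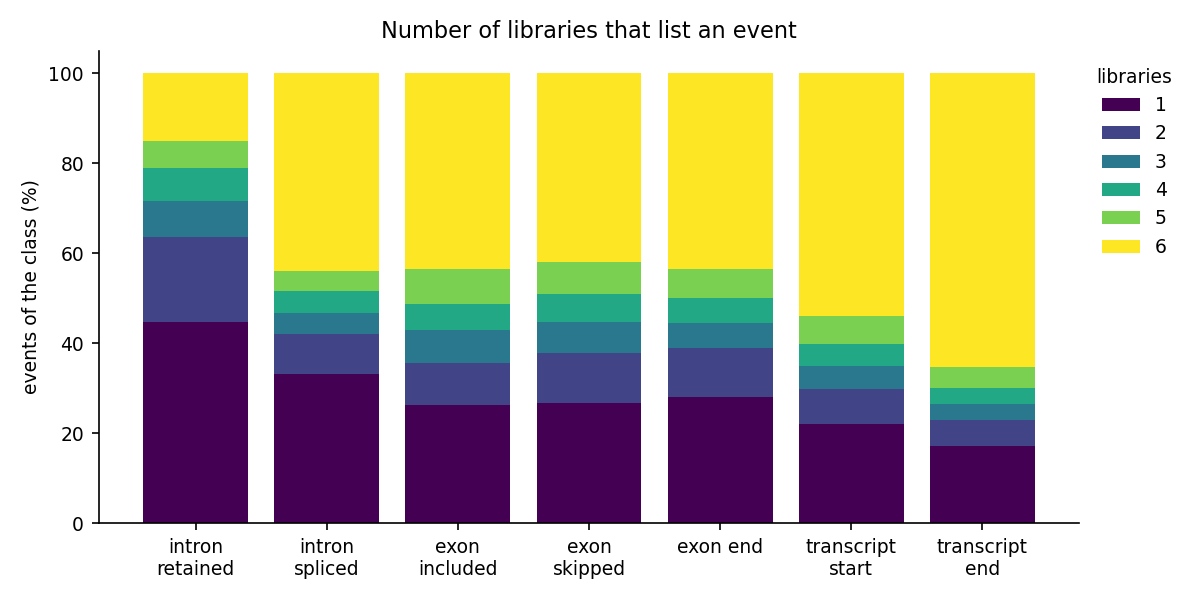
Share of events (vertical axis, percent) listed in 1 to 6 libraries, for 7 classes of event (horizontal axis). The retained form of introns has the largest part listed in 1 library, 44.7%, and the smallest part listed in all 6, 15%.

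Events that followed the groups exactly were few. Among all events, 1.27% were listed in both controls and in none of the knockdown libraries. For the retained form this number was 47 (2.22%) and for the spliced form 38 (1.44%). In the other direction, 0.402% of all events were listed in all 4 knockdown libraries and in neither control, and this held for 10 retained (0.472%) and 10 spliced (0.378%) intron events. The 2 patterns ask for different numbers of libraries, so their shares are each read against all events and not against each other.

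The number of retained events was compared between control and knockdown libraries. The controls listed 1000 and 951 retained events, sequence 2 listed 841 and 970, and sequence 3 listed 909 and 760. The mean was 975.5 ± 34.6 (SD, n = 2) in the controls and 870.0 ± 90.3 (SD, n = 4) with knockdown. The ranges overlapped, through replicate 2 of sequence 2, and the difference of -105.5 events had a two-sided exact permutation p of 0.267. With 2 libraries against 4 this test allows 15 splits, so its smallest p is 0.133.

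Spliced events numbered 1675 and 1627 in the controls, 1552 and 1684 with sequence 2, and 1622 and 1637 with sequence 3. These ranges overlapped as well, with an exact permutation p of 0.800. When only events of at least 1 FPKM were counted, the retained form numbered 645 and 638 in the controls, 545 and 605 with sequence 2, and 592 and 511 with sequence 3. Here no knockdown library reached the controls, and the exact permutation p was 0.133, the smallest that is possible. The total of transcript starts moved in part alongside: it was lowest, at 12837, in replicate 2 of sequence 3, the library with the fewest retained events, against 13305 to 13826 in the others. Per 1000 transcript starts, retained events numbered 72.6 and 70.2 in the controls, 63.2 and 70.2 with sequence 2, and 67.5 and 59.2 with sequence 3, with an exact permutation p of 0.267.

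**Figure D3:**
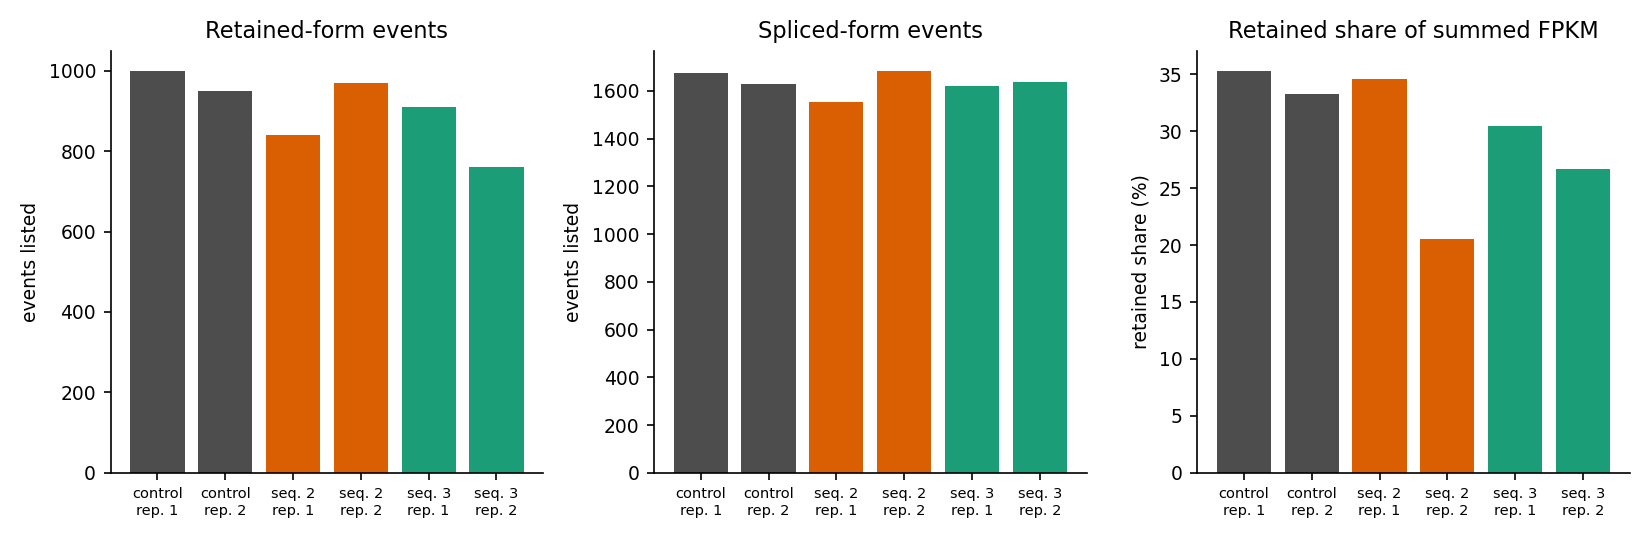
Retained-form events, spliced-form events and retained share of the summed FPKM (vertical axes) in the 6 libraries (horizontal axes), 1 bar per library, coloured by group. Retained events run from 760 to 1000, and the retained share is lowest, at 20.5%, in replicate 2 of sequence 2.

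The retained share of all intron events summed was 35.3% and 33.2% in the controls, 34.6% and 20.5% with sequence 2, and 30.5% and 26.7% with sequence 3. The mean was 34.3% ± 1.46 (SD, n = 2) in the controls and 28.1% ± 5.97 (SD, n = 4) with knockdown. The ranges overlapped through replicate 1 of sequence 2, and the difference of -6.19 percentage points had an exact permutation p of 0.267. In that library the same 790 FPKM at chr4:29528465-29565261 was counted at several retained events, giving 2370 FPKM. With events of type IR alone the shares were 32.1% and 30.8% in the controls and 17.5% to 28.9% with knockdown. These did not overlap (exact permutation p = 0.133). The summed spliced FPKM was 16660 and 18662 in the controls and 19062 to 21126 with knockdown, also without overlap. The low value of replicate 2 of sequence 2 came with a retained sum of 5463 FPKM, whereas the other 5 libraries had 7616 to 10075 FPKM. The 4 loci of highest retained FPKM gave only 441.9 FPKM in that library and 3029 to 4566 FPKM in the others. Without these 4 loci, an alternative added after the data were seen, the shares were 23.7% and 23.0% in the controls, 22.4% and 22.1% with sequence 2, and 20.7% and 17.99% with sequence 3. The groups then did not overlap, with an exact permutation p of 0.133 and a difference of -2.56 points.

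The 2 loci of highest retained FPKM each held an intron that most libraries listed wholly as retained and another wholly as spliced. At chr4:31532972-31569679, an intron of 572 bases flanked by positions 31536684 and 31537257 was listed as retained at 1305 and 1282 FPKM in the controls, at 1091 FPKM in replicate 1 of sequence 2, and at 1122 and 1037 FPKM with sequence 3. Replicate 2 of sequence 2 listed no retained form but the spliced form alone, at 1209 FPKM. The level of the locus in that library, 1209 FPKM, lay within the range of the other 5, from 1037 to 1305 FPKM.

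The locus chr4:29528465-29565261 showed the same turn in the same library. Its own intron of 572 bases, between positions 29532313 and 29532886, was retained at 1181 and 1159 FPKM in the controls and at 1106 and 958 FPKM with sequence 3, and was listed only as spliced, at 832 FPKM, in replicate 2 of sequence 2. In replicate 1 of sequence 2 it lay within a longer retained event, at 790 FPKM. Both loci also list a first exon of the same length, and whether they are near-identical copies between which reads were divided was not tested, so their values are uncertain. At chr1:252537615-252550394 a gap of 35 bases was listed as retained at 736 and 754 FPKM in the controls, 1105 and 442 FPKM with sequence 2, and 949 and 1035 FPKM with sequence 3. Again only replicate 2 of sequence 2 listed a spliced form, at 583 FPKM. At none of these 3 loci did the ratio of forms pass the test between knockdown and control (limma adjusted p of 0.790, 0.760 and 0.842, in the order described).

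A further locus of high level, chr3:109862117-109875259, listed a retained gap of 5 bases at 691 and 499 FPKM in the controls and at 716 FPKM in replicate 1 of sequence 3, and no spliced form in any library. The other 3 libraries listed neither form, although the locus itself stood at 1234 to 1717 FPKM there. By contrast, the locus chrX:63803189-63809861 was even across the libraries, with 239 and 253 FPKM retained in the controls, 266 and 259 FPKM with sequence 2, and 303 and 311 FPKM with sequence 3. Its share was 66.7% in all 6 libraries because the same transcripts were counted as retained at 2 events and as spliced at the other.

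The retained share was then followed locus by locus. The 2 forms together reached 1 FPKM in every library at 823 of the 1128 loci. At 49 of these the retained form was listed in no library and at 45 the spliced form in none, 144 listed both forms in all 6 libraries, and 529 listed the retained form in some libraries only. The share was under 50% in all 6 libraries at 646 loci and over 50% in all 6 at 102.

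The 144 loci with both forms everywhere give the clearest view of the error. Their mean share had a median of 24.7% with quartiles of 12.5% and 46.5%, and the SD over the 6 libraries had a median of 5.12 percentage points. Between libraries of the same group, the median absolute difference of the share was 4.08 to 4.75 points. Between a control and a knockdown library it was 4.32 to 6.17 points, so that both ranges overlapped. The share was higher with knockdown at 63 and lower at 81 of these loci, with a median difference of -0.159 points.

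Each locus was tested with limma on the log2 ratio of retained to spliced FPKM, with 1 FPKM added to both, and the Benjamini-Hochberg adjustment ran over the 823 loci. No locus passed an adjusted p of 0.05 for knockdown against control (0% of 823), for either sequence against control, or for sequence 3 against sequence 2. At an unadjusted p under 0.05 limma gave 56 loci lower (6.80%) and 22 higher (2.67%) with knockdown. The lower count for sequence 2 was 35 with 26 higher, for sequence 3 it was 56 with 21 higher, and between the sequences it was 25 with 19 higher. Leaving out replicate 1 of sequence 2 gave 2 lower loci at an adjusted p under 0.05. Leaving out any other single library gave none for knockdown against control.

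The share of all 4 knockdown libraries lay below both controls at 57 loci (6.93%) and above both at 15 loci (1.82%). For exon skipping, the share of the form that includes the exon did so at 4.29% and 4.65% of 2777 loci. Of the 57 lower loci, 19 had no retained form in any knockdown library, and 18 listed both forms in all 6 libraries.

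**Figure D4:**
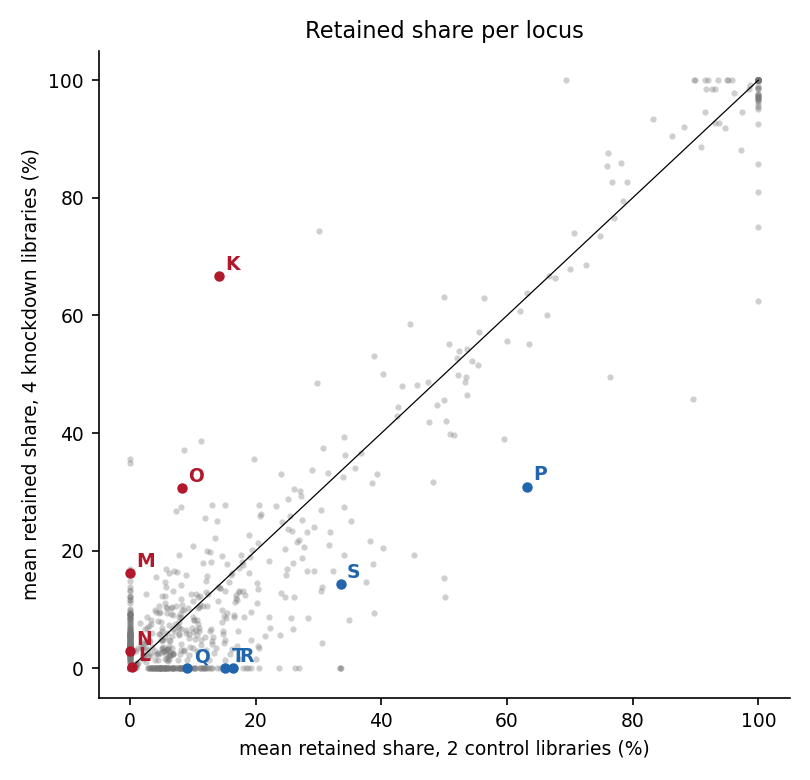
Mean retained share of 823 loci in the 4 knockdown libraries (vertical axis, percent) against that in the 2 control libraries (horizontal axis, percent), 1 point per locus, with the line of equal shares. The letters mark the 5 loci of smallest unadjusted p in each direction, red for a higher and blue for a lower log2 ratio with knockdown; locus P falls from 63.1% to 30.9% and locus O lies at 8.30% and 30.7%.

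The 5 loci with the smallest p in each direction are given as values, since none passed the adjusted threshold. Locus P (chr3:123593811-123607391) had shares of 59.1% and 67.1% in the controls, 25.6% and 18.1% with sequence 2, and 39.4% and 40.5% with sequence 3. All knockdown libraries lay below the controls, with a log2 ratio difference of -1.66 ± 0.25 (SE) and a limma adjusted p of 0.206. With only the largest event of each form the difference was -0.79 (limma adjusted p = 0.439). Its spliced form stood at 4.69 and 3.32 FPKM in the controls and at 8.25 to 10.2 FPKM with knockdown. Locus P has 3 neighbouring introns in these events, of 76, 143 and 163 bases.

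Locus S (chr14:2041698-2056762) had shares of 34.2% and 32.9% in the controls, 14.0% and 12.4% with sequence 2, and 13.1% and 17.6% with sequence 3. The groups did not overlap, and the log2 ratio difference was -1.47 ± 0.26 (SE, limma adjusted p = 0.239), and -0.84 with only the largest event of each form (limma adjusted p = 0.403). The 2 introns of this locus behaved differently. Its intron of 308 bases (2044399 to 2044708) was listed as retained at 4.56 and 5.96 FPKM in the controls and in no knockdown library. Its intron of 88 bases (2045491 to 2045580) was retained in all 6 libraries, at 8.34 and 5.96 FPKM in the controls, 5.63 and 4.87 FPKM with sequence 2, and 5.16 and 6.18 FPKM with sequence 3. The level of the locus hardly moved, at 17.5 to 20.1 FPKM in all 6 libraries.

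At the other 3 loci with a lower share the retained form was listed in both controls and in no knockdown library. Locus Q (chr1:100537900-100559942) had 2.10 and 2.97 FPKM of the retained form in the controls, a share of 7.94% and 10.3%, while its level was 26.5 and 28.7 FPKM in the controls and 22.8 to 34.3 FPKM with knockdown. Locus R (chr6:126636491-126654765) had 1.62 and 1.54 FPKM, a share of 16.2% and 16.5%. These sums count 0.809 and 0.769 FPKM at 2 events of the same intron. Locus T (chr12:13967092-13998172) had 3.52 and 3.87 FPKM, a share of 14.9% and 15.5%, and here the spliced form fell too, from 20.1 and 21.2 FPKM to 10.98 to 12.8 FPKM (log2 difference -0.76 ± 0.09 SE, limma adjusted p = 0.0165). The adjusted p of the ratio was 0.206 at Q, 0.222 at R and 0.239 at T.

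Among loci with a higher ratio, locus O (chr2:52503702-52531083) carries an intron of 102 bases, listed with a second boundary at 95 bases. Its retained form stood at 0.767 and 1.08 FPKM in the controls, 3.62 and 2.01 FPKM with sequence 2, and 3.56 and 4.09 FPKM with sequence 3. The share was 7.13% and 9.46% in the controls and 19.0% to 38.2% with knockdown, while the locus stayed between 10.6 and 11.4 FPKM in all 6 libraries. The groups did not overlap, with a log2 ratio difference of 1.54 ± 0.33 (SE, limma adjusted p = 0.280).

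Locus K (chr4:122314458-122337389) had shares of 19.2% and 9.08% in the controls and of 66.7% in each knockdown library, with a log2 ratio difference of 2.33 ± 0.23 (SE) and an adjusted p of 0.141, the lowest of all 823 loci in limma. With only the largest event of each form, an alternative added after the data were seen, the difference was 1.11 (limma adjusted p = 0.205). The equal value in the 4 libraries arose because the same transcripts were counted as retained and as spliced at several events. The level of locus K was 3.10 and 1.76 FPKM in the controls and 0.965 to 1.32 FPKM with knockdown, close to the 1 FPKM that was added. Its spliced form fell from 5.19 and 4.80 FPKM to 0.965 to 1.32 FPKM (log2 difference -1.50 ± 0.16 SE, limma adjusted p = 0.0108).

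Locus M (chr18:16438091-16445505) listed a retained form in none of the controls, at 1.74 and 1.38 FPKM with sequence 2, in none and at 0.977 FPKM with sequence 3. Its share of 0% to 26.1% with knockdown touched the controls at 0%. At the loci L (chr10:64737022-64760201) and N (chr2:189760747-189765415) the retained form was near or at 0 throughout, with shares of at most 0.615% at L and of 11.8% in 1 knockdown library at N. The higher log2 ratio there went with the spliced form alone, which fell from 43.5 and 60.0 FPKM to 6.71 to 13.4 FPKM at L and from 34.6 and 31.8 FPKM to 5.60 to 8.84 FPKM at N, since a constant added to a form at 0 makes the ratio follow the level of the locus.

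The level of each form was tested in a second limma fit, on log2(FPKM + 1), over 27912 combinations of locus and event class with at least 1 FPKM in at least 2 libraries. Of all these combinations, 2.48% were lower and 1.37% were higher with knockdown. The retained form passed the filter at 509 of the 1038 loci that list it, and 17 were lower (3.34%) and 7 higher (1.38%). The spliced form passed at 841 of 1022 loci, and 28 were lower (3.33%) and 8 higher (0.951%). The median log2 difference was -0.06 for the retained and 0.08 for the spliced form, and it was 0.07 over all combinations. These counts rest on both controls, for without replicate 1 of the controls 0 retained forms were lower and 2 higher, and without replicate 2 of the controls 1 was lower and 1 higher. Of the libraries of sequence 2, leaving out replicate 1 gave 2 higher calls, and leaving out replicate 2 gave 9 lower and 2 higher calls. A library left alone in its group was assumed to vary like the other groups.

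The sequences, which share the controls, were also set against them one at a time, in contrasts added after the data were seen. With sequence 2, 13 retained forms were lower and 4 higher, and 24 spliced forms were lower and 4 higher, against 2.10% lower and 0.777% higher of all combinations. With sequence 3, 17 retained forms were lower and 3 higher, and 28 spliced forms were lower and 7 higher, against 2.23% and 1.06%.

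Of the 17 lower retained forms, 16 did not overlap between groups, against 10.9% of all combinations below both controls, and 9 were listed in no knockdown library. Those 9 passed the filter through the controls and had to differ. The calls were made on these same values and favour groups that lie apart, so the 16 add no separate support. The retained form moved together with the locus in most cases. At 12 of the 17 loci the transcript starts or ends were called lower as well, and at 10 the spliced form was.

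Locus A (chr15:38647469-38710034, XLOC_016202) had the largest fall. Its retained form was listed at 36.4 and 33.3 FPKM in the controls and in no knockdown library, with a log2 difference of -5.16 ± 0.15 (SE) and a limma adjusted p of 0.000153. Its spliced form, at 50.3 and 109 FPKM in the controls, was likewise listed in no knockdown library, and the locus stood at 41.1 and 63.3 FPKM in the controls but at 0.764 FPKM in replicate 1 of sequence 3 and 0 in the other 3. The intron of 83 bases of locus A was the one retained most, at 13.2 and 23.7 FPKM in the controls, and its intron of 518 bases was mostly spliced.

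Locus B (chr13:91968029-91981432, XLOC_012928) had a retained form of 25.8 and 28.9 FPKM in the controls and none in the knockdown libraries (log2 difference -4.82 ± 0.16 SE, limma adjusted p = 0.000199). Its retained share was 83.1% and 82.1% in the controls. This share counts the same 12.9 and 14.5 FPKM at 2 retained events, while the level of the locus was 25.01 and 29.12 FPKM there. It is therefore not the part of the locus that was retained. Locus C (chr3:176730033-176744377) had 46.0 and 33.2 FPKM in the controls, none and 1.59 FPKM with sequence 2, and 1.10 and 1.54 FPKM with sequence 3. Its share nevertheless stayed at 69.2% and 65.3% in the controls and at 66.7% in the 3 knockdown libraries that listed it, where the same transcripts were counted at 3 events. Locus D (chr16:29804728-29823707) had 14.8 and 10.004 FPKM in the controls and none with knockdown. Locus E (chr10:108524103-108646677) had 7.51 and 8.61 FPKM in the controls and 0.537 FPKM in 1 knockdown library. At loci A to E the level of the locus was 12.8 FPKM or more in both controls and at most 1.75 FPKM in any knockdown library.

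**Figure D5:**
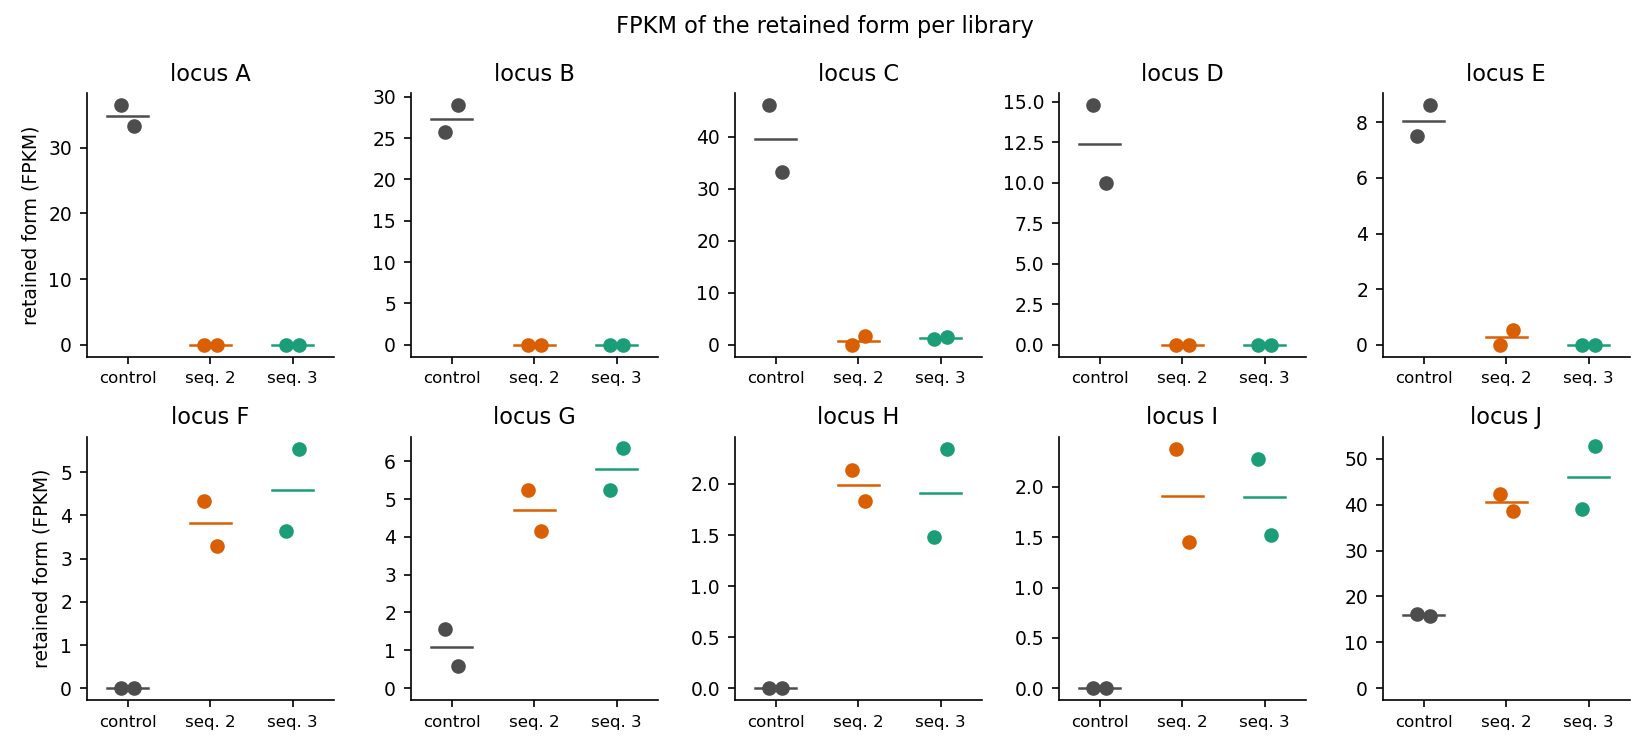
FPKM of the retained form (vertical axes, linear, from 0) in the control, sequence 2 and sequence 3 libraries at the loci A to E, the largest falls that passed the test, and F to J, the largest rises, 1 point per library with the group mean as a line. The 4 knockdown libraries lie at 0 to 1.59 FPKM at A to E and above both controls at F to J.

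The retained form was called lower while neither starts nor ends were at 5 of the 17 loci. They comprised loci Q and S described above, and chr4:66290389-66354711, chrX:10963737-11105588 and chr5:141039468-141363524, named here after their values were seen. At Q the log2 difference was -1.81 ± 0.25 (SE, limma adjusted p = 0.0247) and at S it was -1.06 ± 0.13 (SE, limma adjusted p = 0.0169). At chr4:66290389-66354711 an intron of 1652 bases was retained at 3.00 and 2.85 FPKM in the controls and in no knockdown library, and the spliced form was listed in 1 library, at 2.12 FPKM (log2 difference -1.97 ± 0.22 SE, limma adjusted p = 0.0135). The transcript ends of this locus stood at 21.1 and 18.4 FPKM in the controls and at 27.7 to 32.5 FPKM with knockdown. At chrX:10963737-11105588 the retained form was a gap of 5 bases, at 5.42 and 2.57 FPKM in the controls alone. At Q, chr4:66290389-66354711 and chrX:10963737-11105588 no knockdown library listed the retained form. It passed the filter through the controls there and had to differ.

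Of the 7 higher retained forms, 6 did not overlap between groups, against 20% of all combinations above both controls, and 4 were listed in neither control. Those 4 passed the filter through knockdown libraries and had to differ. These calls too were made on the same values, so the 6 add no separate support. At 5 of the 7 neither starts nor ends were called higher, and at none of them was the spliced form. Locus F (chr5:25731366-25750945, XLOC_035493) was listed as retained in neither control, at 4.34 and 3.29 FPKM with sequence 2, and at 3.63 and 5.54 FPKM with sequence 3 (log2 difference 2.36 ± 0.22 SE, limma adjusted p = 0.00669). The spliced form of its intron of 981 bases was listed only once, at 3.79 FPKM in replicate 2 of sequence 2, while the locus stood at 9.34 to 24.5 FPKM in all 6 libraries.

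Locus G (chr3:11391641-11410180) had 1.56 and 0.592 FPKM in the controls, 5.25 and 4.15 FPKM with sequence 2, and 5.23 and 6.35 FPKM with sequence 3 (log2 difference 1.62 ± 0.25 SE, limma adjusted p = 0.0343). Its share was 18.9% and 3.77% in the controls and 30.3% to 46.0% with knockdown, without overlap, and the adjusted p of the ratio was 0.505. Locus G retains an intron of 153 bases, with a second boundary at 141 bases.

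Locus H (chr8:52918134-52937972) and locus I (chr5:139885156-139931399) were listed as retained in neither control and at 1.48 to 2.34 and 1.45 to 2.38 FPKM with knockdown. At I the spliced form stood at 10.8 to 14.5 FPKM in all 6 libraries, so that the share with knockdown was 9.48% to 16.9%. Locus J (chr16:19669366-19765186, XLOC_017087) had 16.2 and 15.7 FPKM in the controls, 42.4 and 38.7 FPKM with sequence 2, and 39.0 and 52.9 FPKM with sequence 3 (log2 difference 1.38 ± 0.15 SE, limma adjusted p = 0.0108). Here the level of the locus rose, from 17.6 and 16.7 FPKM to 41.0 to 50.6 FPKM, and the share stayed at 57.0% to 69.5%. The rise was not shared by all its starts. The start at 19762938 rose from 6.26 and 7.39 FPKM in the controls to 27.9 to 40.1 FPKM with knockdown. That at 19669366 stood at 9.31 to 13.6 FPKM in all 6 libraries. At the last of the 5 loci whose summed starts and ends were not called, chr1:35280506-35320234, the retained form was listed at 4.38 and 4.98 FPKM with sequence 2 and in no other library. One of its starts had the same 2 values there and stood at 0.820 and 0.877 FPKM in the controls and at 0 with sequence 3.

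The spliced form also followed its locus. Of its 28 lower calls, 6 were listed in no knockdown library, and these passed the filter through the controls and had to differ. Starts or ends were called lower at 24 of the 28 loci and higher at 4 of its 8 higher loci. Without replicate 1 of the controls the calls numbered 6 lower and 1 higher, and without their replicate 2 they numbered 7 and 0. Without replicate 1 or 2 of sequence 2 there were 2 or 1 higher, and without replicate 2 of sequence 3 there were 5. The falls were led by locus A, followed by chr4:88607518-88649216, with 39.3 and 29.8 FPKM in the controls and none with knockdown, 1 of those 6 (log2 difference -5.14 ± 0.18 SE, limma adjusted p = 0.00023). Loci D and C and chr3:3352968-3365340 came next, and chr3:3352968-3365340 had 8.20 and 13.1 FPKM of the spliced form in the controls and none with knockdown. Those sums count the same transcripts at several events, as the level of that locus was only 3.24 and 3.93 FPKM in the controls. Among the rises, chr5:134919044-134927235 had 5.02 and 5.84 FPKM in the controls and 11.1 to 28.1 FPKM with knockdown (log2 difference 1.56 ± 0.25 SE, limma adjusted p = 0.0398). The call at chr2:196392938-196404623 rests on sequence 2 alone, with 7.25 and 7.35 FPKM there and 0 in all other libraries (log2 difference 1.53 ± 0.19 SE, limma adjusted p = 0.0182). It passed the filter through that group. Locus chr11:83948230-83964055 had 2.10 and 2.04 FPKM against 4.94 to 5.53 FPKM (log2 difference 1.02 ± 0.12 SE, limma adjusted p = 0.0156). At chr10:13893290-13898905 the values were 2.26 and 3.11 FPKM in the controls, 4.46 and 5.35 FPKM with sequence 2, and 7.64 and 9.43 FPKM with sequence 3. With only the largest event of each form, neither of the last 2 loci nor locus P was called (limma adjusted p of 0.098, 0.124 and 0.208).

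The sequences were last set against each other, in a contrast of the same fit that was likewise added later. Of all combinations 0.0681% were lower and 0.0287% higher with sequence 3 than with sequence 2, and 2 retained and 2 spliced forms were among the lower ones. At chr5:145085791-145095211 an intron of 2280 bases was retained in both controls and both libraries of sequence 2 and in neither library of sequence 3. The retained form, summed over its events, stood at 5.76 and 4.03 FPKM in the controls, at 6.69 and 8.02 FPKM with sequence 2, and at 0 with sequence 3 (log2 difference -3.06 ± 0.22 SE, limma adjusted p = 0.0357). Each sum above 0 counts the same transcripts at 2 events, with 2.88 and 2.01 FPKM in the controls. The transcript end of this locus remained at 25.3 to 29.7 FPKM in all 6 libraries.

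At chr5:141039468-141363524 both forms were listed at 10.5 FPKM or more in the controls and with sequence 2 and in neither library of sequence 3, with log2 differences of -3.81 ± 0.29 for the retained and -3.94 ± 0.25 for the spliced form (SE, limma adjusted p of 0.0424 and 0.0251). Its transcript end was nevertheless listed at 20.3 to 37.9 FPKM in all 6 libraries. In the controls and replicate 1 of sequence 2 the same transcripts were counted as retained at one intron and as spliced at another. The calls of the 2 forms are therefore not independent. Replicate 2 of sequence 2 listed neither of those events, and its retained 10.7 FPKM was 5.34 FPKM counted at 2 events of the other intron. The call of this locus against control came from sequence 3. The summed retained form of sequence 2 stood at 15.9 and 10.7 FPKM, within the controls at 10.5 and 16.9 FPKM. At chr2:196392938-196404623 the spliced form was listed with sequence 2 only, at 7.25 and 7.35 FPKM (log2 difference -3.05 ± 0.22 SE, limma adjusted p = 0.0357), and it passed the filter through that group alone. Here the locus itself stood at 0 in both libraries of sequence 3 and in replicate 1 of the controls. Replicate 2 of the controls listed its transcript end, and the retained form, at 5.65 FPKM.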

How the data were processed

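The authors deposited, for each library, a list of transcript starts, ends and splicing events with an FPKM above 0 for each event, not read counts. Per the labels, their processing notes name StringTie 1.0.4 and HISAT2 2.0.1, beside Trimmomatic 0.30, HTSeq 0.6.1 and SAMtools 0.1.18; the event caller and the genome build were not given in the sources used here. Repeated events of a library were dropped (19272 rows to 15228), and events of 1 form were summed per locus. The locus level was the larger of its summed starts and ends. Whole tables were fitted with 1 mean per group in limma 3.58.1 (R 4.3.3, trend on), using a pseudocount of 1 and Benjamini-Hochberg adjustment at 0.05, after tests on simulated data. Differences are on the log2(FPKM + 1) scale, understate changes of low values, and are no fold where a group is at 0. Single values per library were compared with exact permutation tests (Python 3.11.15, scipy 1.17.1). FPKM keep no depth, so no counting interval is given.

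Named loci were the 5 of smallest unadjusted p in each direction for the ratio, the 5 largest called rises and falls of each form, and the 5 highest and the 5 with most events. Of the 5 with most events, only the first is described. The events, lists and tests were chosen with earlier results of these data known. Lists of splicing factors, interferon, muscle, matrix and decay genes and of cell type markers could not be applied without gene names and were not analysed here. No genome sequence of the files' build was used here, so no intron sequence is printed.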

Additional observations from a re-analysis of the deposited data

Results flagged for a closer look

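Among 56 sets of 4 knockdown libraries tested, 7 held a library whose gap to the nearest other was large against the range of the set. The limit used gives about 1 set in 20 by chance only for independent, normally distributed values. Unlisted values set to 0 and forms of the same locus do not meet this, so the 7 sets cannot be read against that rate. As a share of the range, that gap was 1 for the retained form at locus E and at chr3:109862117-109875259, each listed in a single knockdown library. It was 0.9236 for the retained form and 1 for the spliced form at chr4:31532972-31569679, and 1 for the spliced form at chr1:252537615-252550394, all 3 through replicate 2 of sequence 2. For the retained share it was 0.971 at locus L, where that library had 0.414%, and 1 at locus N, where replicate 1 of sequence 3 alone listed the retained form.

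A difference between the interference sequences was called at 4 places. On the log2 scale, sequence 3 minus sequence 2 was -3.059 for the retained form at chr5:145085791-145095211, -3.811 for the retained and -3.936 for the spliced form at chr5:141039468-141363524, and -3.053 for the spliced form at chr2:196392938-196404623 (limma adjusted p from 0.0251 to 0.0424). In each case both libraries of sequence 3 were at 0 and both of sequence 2 were not.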

How the results depend on the processing

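For the summary values, 223 alternative values kept the call of the reported one and 54 moved. The ratio per locus, with 0 calls in every contrast, gave calls on the scale of the share itself: 8 lower and 1 higher for knockdown against control, 8 and 3 for sequence 2 and 8 and 3 for sequence 3, and all 8 lower loci for knockdown were at 0 in every knockdown library. At an unadjusted p under 0.05 it gave 56 lower and 22 higher, 35 and 26 for sequence 2, 56 and 21 for sequence 3, and 25 and 19 between the sequences. Testing only the 144 loci with both forms in every library, chosen after seeing the data, gave 2 lower (P and S) and 2 higher (K and L), 1 and 2 for sequence 2, and 1 higher for sequence 3. Each intron on its own gave 1 lower for sequence 3 and 1 lower between the sequences. Leaving out a library gave 0 to 2 lower for knockdown, 0 to 3 lower for sequence 2 and 0 to 3 higher between the sequences, each time through replicate 1 of sequence 2, and 0 otherwise. On the scale of the share, locus L changed direction, to -0.00139. A pseudocount of 0.1 moved the log2 difference of 16 named values by over 1.5 times, and 5 named calls of a form were lost with it.

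The retained form, with 17 lower and 7 higher, gave 3 and 2 with 1 FPKM required in all 6 libraries, 8 and 1 at an adjusted p under 0.01, 59 and 42 at an unadjusted p under 0.05, and 0 to 16 and 1 to 6 without 1 library. The spliced form, with 28 and 8, gave 18 lower with 1 FPKM in all 6 libraries, 4 higher without a filter, 5 higher without the trend, 16 and 0 at an adjusted p under 0.01, 59 and 95 at an unadjusted p under 0.05, and 6 to 30 and 0 to 10 without 1 library. The controls carried most of this: without control replicate 1 or 2 the spliced form gave 6 or 7 lower and 1 or 0 higher. The cause was not tested. Without 1 library the difference in retained events was -139 to -68.8, and that in the summed share was -8.36 to -3.68 points.

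Same-numbered libraries deviated together with correlations of -0.0141, 0.139 and -0.161, so the numbers were not taken as pairs. With the replicate number as a block, the retained form gave 11 lower and 2 higher and the spliced form gave 2 higher, and no other count changed by more than 1.5 times.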
